A study of Mus musculus with 8 samples.

Results

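The clustered protocadherin genes lie in a row on mouse chromosome 18, and the ATAC-seq peaks of that region are described here in embryonic stem cells with and without an mTOR inhibitor. Members were all peaks centred between 36.9 and 37.9 Mb (GRCm38), chosen by position alone, and they numbered 95 of the 134407 peaks in the table. ATAC-seq counts insertions of the Tn5 transposase, which reaches open chromatin more readily than packed chromatin. All libraries came from the wild-type mouse embryonic stem cell line E14, grown on gelatin in medium with serum and LIF, from 50000 live cells each. There were 4 control libraries, grown in that medium alone, and 4 paused libraries, grown for 24 h with 200 nM INK128, which blocks the mTOR kinase and is used to slow stem cells into a state resembling developmental pausing. The line is a single line, and nothing in the labels says whether replicates were separate cultures, so that p-values measure the spread between these libraries only.

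Clustered protocadherins are cell adhesion proteins of the nervous system. In Pcdha and Pcdhg each variable exon has its own promoter and is spliced to constant exons at the far end of its cluster, whereas each Pcdhb gene is a single exon unit; a neuron uses only a few of these promoters, so that neighbouring cells carry different surface identities. CTCF and cohesin bring the promoters into contact with enhancers, of which HS5-1 lies between Pcdha and Pcdhb and another group lies beyond Pcdhg; the C-type genes (Pcdhac1, Pcdhac2, Pcdhgc3, Pcdhgc4 and Pcdhgc5) are used more uniformly. These genes are known for their role in neurons, and their accessibility in stem cells is no measure of their transcription.

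The gene table (RefSeq, GRCm38.p6) lists 14 Pcdha genes at chr18:36930285-37188897, 22 Pcdhb genes at chr18:37264998-37521419 and 22 Pcdhg genes at chr18:37661775-37841873, the last including the pseudogene Pcdhgb8. It also lists 3 read-through genes (Gm37013, Gm38666 and Gm38667) that run from Pcdha to the end of Pcdhg. The Pcdha cluster held 20 peaks, the Pcdhb cluster 30 and the Pcdhg cluster 32. A single peak lay between Pcdha and Pcdhb, 3 lay between Pcdhb and Pcdhg, where Slc25a2 and Taf7 also lie, and 9 lay in the flank downstream of Pcdhg. All 9 of these were inside Diaph1, which encodes a formin that nucleates actin filaments. The flank upstream of Pcdha held 0 peaks. Peaks lay a median of 5249 bp apart, and the longest stretches without one were 112027, 68488 and 53948 bp. The values are the authors' reads per peak divided by 1 factor per library, called normalized reads below. The variable exons are similar in sequence, and how reads that match several copies were handled is not given in the sources used here, so that the value of any 1 gene's peak is uncertain to that extent.

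The region held strong peaks. All peaks have one width, so that levels can be set side by side. Its peaks had a median of 79.1 normalized reads over the 8 libraries, against 34.4 for all 127402 peaks with a mean of at least 10, and the median member ranked at percentile 79.0 of all peaks. The strongest peak was at the start of Pcdhgc3, with a mean of 282, followed by 2 peaks beyond the Pcdhgc5 start and by peaks at Pcdhb14 and Pcdhac1. C-type starts stood high in their clusters. The start peaks of Pcdhgc3, Pcdhac1 and Pcdhac2 had control means of 247 ± 31.8, 194 ± 11.5 and 169.7 ± 19.97 (SD, n = 4). The other 36 start peaks, of all 3 clusters, had a median control mean of 58.3. By cluster, with the C-type starts included, the median control mean of start peaks was 95.9 in Pcdhg, 49.0 in Pcdha and 27.7 in Pcdhb. No peak was found within 1 kb of the starts of Pcdhgc4 and Pcdhgc5; a list of peaks does not show that a site without one was closed.

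**Figure D1:**
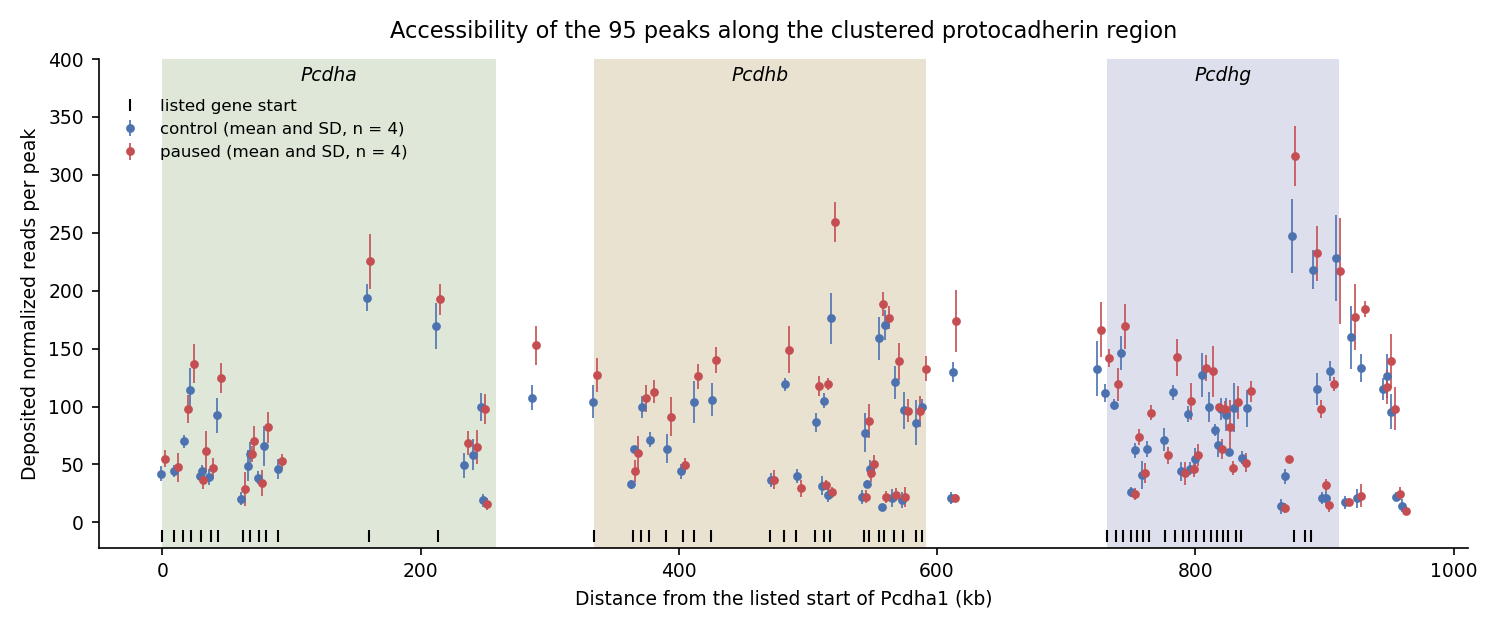
Mean normalized reads per peak with SD (n = 4 libraries per group; control blue, paused red) against distance from the listed start of Pcdha1 in kb, with clusters shaded and gene starts as ticks; the 2 groups are drawn slightly apart. Pcdhgc3 is the highest peak, at 247 in control and 316 in paused libraries, and the stretches between clusters hold 1 and 3 peaks.

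The clusters differed in where their peaks lay within a gene. Peaks centred within 1 kb of a listed start are called start peaks here and peaks 1 to 3 kb after it inner peaks, a grouping chosen after the positions were seen and given without a test. In Pcdhb, 20 of 22 genes had an inner peak, a median of 2136 bp after the start (1689 to 2368), and all 20 were within the listed span of the gene, which had a median length of 3418 bp. Pcdhb inner peaks had a median of 103 normalized reads and the 10 Pcdhb start peaks a median of 28.3. In all 8 Pcdhb genes with both, the inner peak was the stronger one in control libraries, by 1.39 times at Pcdhb16 to 13.2 times at Pcdhb18. At Pcdhb18 the start peak held 13.0 ± 2.44 and the inner peak 170 ± 12.7 normalized reads in control libraries (SD, n = 4).

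Pcdhg showed the opposite layout. Start peaks were found at 18 of its 22 genes, centred from 98 bp before to 309 bp after the listed start, with a median of 98.5 normalized reads. The 5 Pcdhg inner peaks had a median of 53.7, and in the 3 genes with both kinds (Pcdhga8, Pcdhga10 and Pcdhga11) the inner peak had 0.49 to 0.84 of the start peak's control value. In Pcdha, 11 genes had a start peak, 5 an inner peak and 2 both, so that all 14 had at least 1. Pcdha start peaks lay a median of 430 bp after the listed start and had a median of 53.9 normalized reads.

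**Figure D2:**
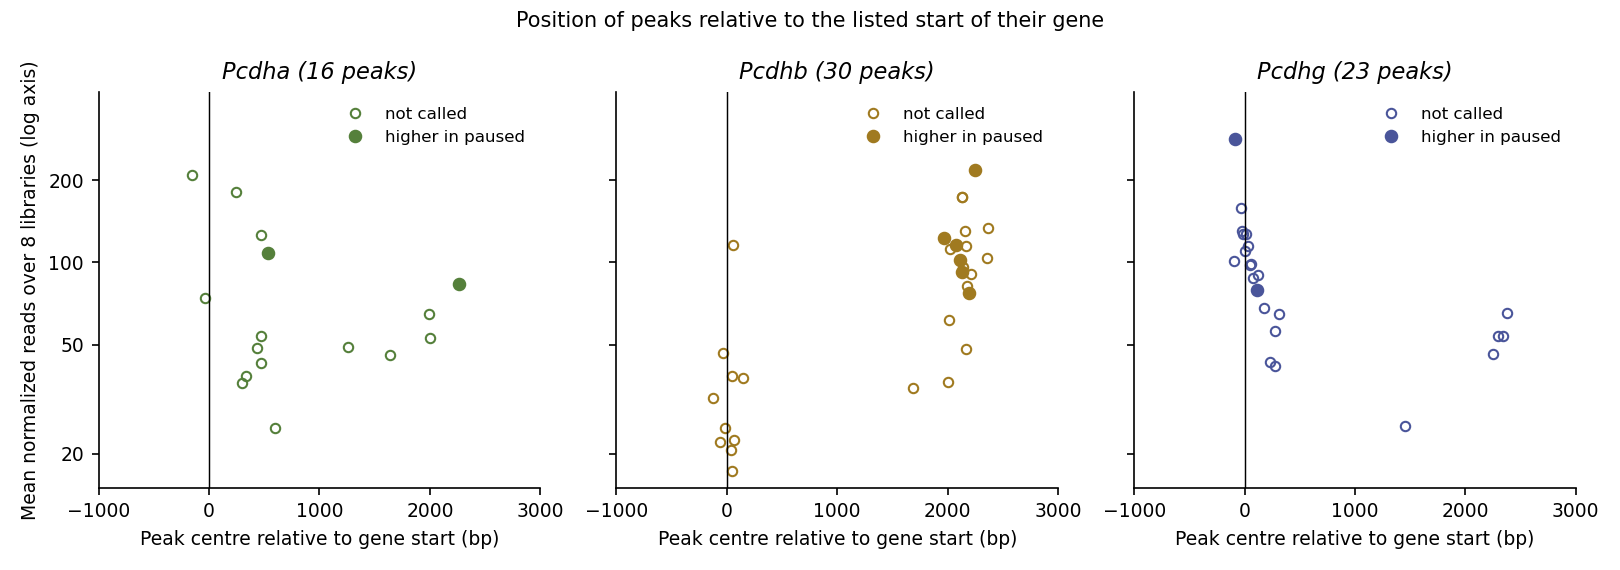
Position of each start or inner peak relative to the listed start of its gene (bp) against its mean normalized reads over 8 libraries (log axis), by cluster; filled circles are peaks called higher in paused cells. Pcdhb start peaks have a median of 28.3 and Pcdhb inner peaks, about 2136 bp into the gene, a median of 103, with some overlap, while the strong Pcdhg peaks sit at the start.

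In paused cells 14 of the 95 peaks were higher and 0 lower, at a Benjamini-Hochberg adjusted p under 0.05 in limma-trend on log2(value + 1), fitted and adjusted over all 127402 peaks. This was 14.7% of members, against 11.0% of all tested peaks called higher and 2.91% called lower. The median log2 change was 0.17 for the members, 0.10 for all tested peaks and 0.12 for the 227 tested peaks of the 1 Mb on either side, of which 31 were called higher and 5 lower. Changes below are on this scale and are to be read against the 0.10 shift of all peaks, which grew with peak strength. For all tested peaks the median was 0.01 below 50 normalized reads, 0.15 from 50 to 100 and 0.20 at 100 or more. For members of those strengths it was 0.09, 0.16 and 0.24. The change was above 0 for 75 of 95 members and for 61.3% of all tested peaks. In the same order of strength it was above 0 for 23 of 33, 19 of 26 and 33 of 36 members. Among all tested peaks of those strengths the shares were 51.2%, 71.0% and 88.9%. After the loess correction described below, 53 members were above 0, and the median change of all tested peaks was -0.01. In bulk libraries, more cells with an open site and a more open site per cell cannot be told apart.

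Peak strength moved with the calls. None of the 33 members with a mean under 50 normalized reads was called, 5 of 26 from 50 to 100 were called higher, and so were 9 of 36 at 100 or more; the shares called higher among all tested peaks of those strengths were 6.67%, 18.1% and 19.5%. Without a model, all 4 paused values lay above all 4 control values for 21 members (22.1%), against 13.0% of all tested peaks. In the same ranges of strength this held for 3, 4 and 14 members, against 8.32%, 19.4% and 23.8% of all tested peaks. All 4 paused values lay below all 4 control values for 1 member (4.36% of all tested peaks). That 1 was the inner peak of Pcdhga11, named here after its values were seen. The authors' deposited table lists 13 members with an FDR under 0.05, all higher in paused cells and all among the 14, against 9.19% of all peaks; the peak it leaves out is the one downstream of Pcdhac2.

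Fewer members were called under other scalings. With TMM factors in edgeR, run on the recovered reads, 7 members were higher and 1 lower, beside 7.40% and 5.31% of all tested peaks. After TMM rescaling limma-trend called 5 higher and 0 lower (5.99% of all peaks higher), and DESeq2 called 2 higher and 0 lower (3.23% higher). After a loess correction on peak strength, 2 were higher and 2 lower, beside 5.10% and 3.50% of all tested peaks. With a minimum mean of 50 normalized reads, 17 of the remaining 62 members were higher, beside 22.4% of all such peaks. The inner peaks of Pcdhb4 and Pcdhb14 were called in each of the 17 alternatives, with adjusted p-values of at most 0.0325 and 0.0212.

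**Figure D3:**
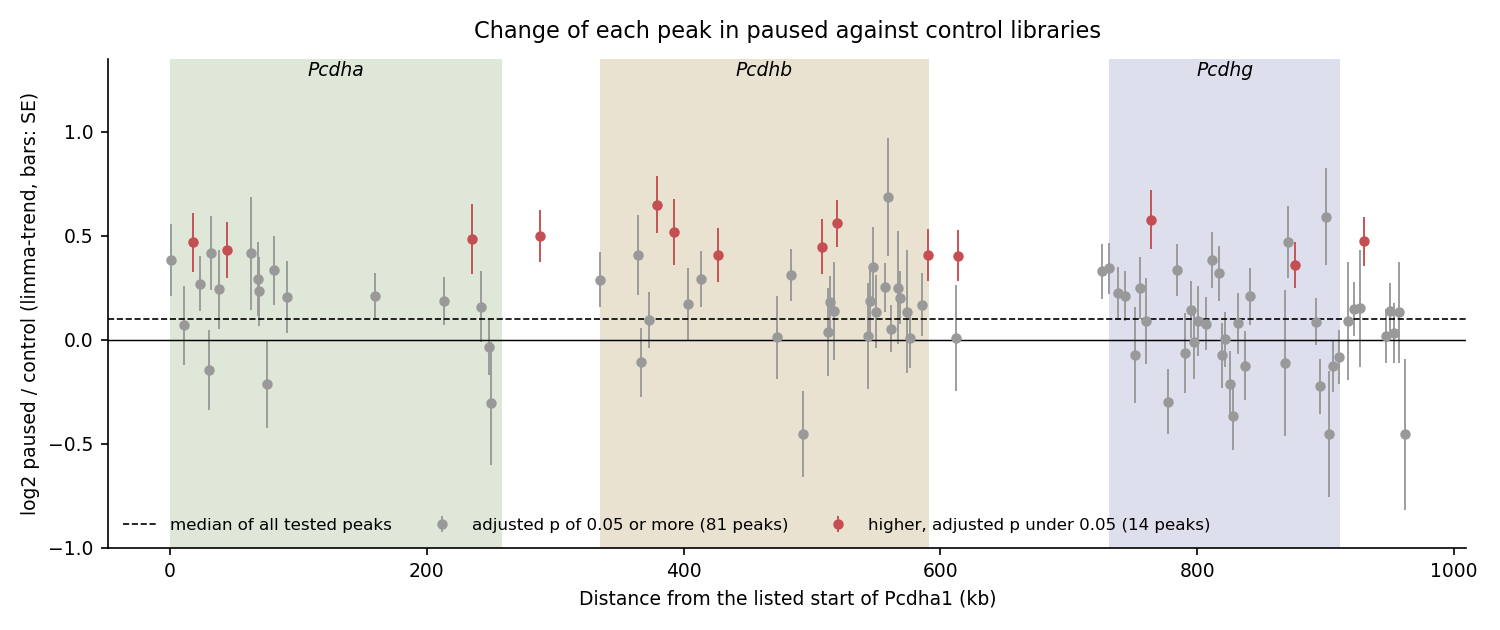
log2 change of each of the 95 peaks in paused against control libraries (points; bars are limma-trend standard errors) by distance from the listed start of Pcdha1 in kb, with clusters shaded and the dashed line at the median of all tested peaks, 0.10. The 14 called peaks (red) lie in every segment that holds peaks, and of the 6 points beyond the Pcdhgc5 start 4 fall below 0 and the highest, which is not called, is at 0.59.

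The Pcdhb cluster held 6 of the 14 calls, all of them inner peaks. They were 20% of its 30 peaks and 30% of its 20 inner peaks, whose median was 103 normalized reads. Of all tested peaks 11.0% were called higher. The share was 18.1% at a mean of 50 to 100 and 19.5% at 100 or more. The inner peak of Pcdhb14 (chr18:37449804-37450004) had 161, 154, 196 and 194 normalized reads in control libraries and 256, 238, 281 and 262 in paused libraries. Every paused library lay above every control library, and the log2 change was 0.56 ± 0.11 (SE, n = 4 against 4; limma-trend adjusted p = 0.000787). The inner peak of Pcdhb4 (chr18:37309485-37309685) had 79.5, 64.5, 72.8 and 69.1 in control and 117, 99.4, 123 and 112 in paused libraries. Its groups were likewise apart, with a log2 change of 0.65 ± 0.14 (SE; limma-trend adjusted p = 0.00107). Both genes encode adhesion proteins of the Pcdhb family, which lack the constant part shared by Pcdha and by Pcdhg proteins.

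The other 4 Pcdhb calls were the inner peaks of Pcdhb5, Pcdhb8, Pcdhb12 and Pcdhb22, with log2 changes of 0.41 to 0.52 (limma-trend adjusted p from 0.0181 to 0.0271). Only at Pcdhb5 did the groups overlap: control libraries ran from 47.4 to 77.6 and paused libraries from 75.0 to 107. Each of these calls was lost in DESeq2 and after the TMM or loess corrections, and all but that of Pcdhb12 in edgeR with TMM (adjusted p up to 0.314). Each was also lost without single libraries: Pcdhb12 without control replicate 1 (limma-trend adjusted p = 0.0829), and Pcdhb5 without control replicate 3 or paused replicate 1 or 3 (up to 0.112). Pcdhb8 was lost without control replicate 1, 2 or 4 or paused replicate 3 or 4 (up to 0.0792), and Pcdhb22 without control replicate 1 or 4 or paused replicate 2, 3 or 4 (up to 0.0733). None of the 10 Pcdhb start peaks was called, although the change was above 0 for all 10 (for 8 in DESeq2 and after the TMM or loess corrections); their median change was 0.21 and that of the 20 inner peaks 0.19. Of the 10 start peaks all but that of Pcdhb1 had a mean under 50 normalized reads. In that range 6.67% of all tested peaks were called higher and 51.2% had a change above 0. The summed inner peaks were 5.60 ± 0.36 times the summed start peaks in control and 5.63 ± 0.06 times in paused libraries (SD, n = 4), a ratio formed after the values were seen. The strongest Pcdhb start peak, at Pcdhb1, had a mean of 104 in control and 127 in paused libraries (log2 change 0.29 ± 0.13, SE; limma-trend adjusted p = 0.137), and the groups overlapped. The lowest change in the cluster, at the inner peak of Pcdhb11, was -0.45 ± 0.21 (SE; limma-trend adjusted p = 0.136), from 40.1 ± 5.69 in control to 29.4 ± 7.47 in paused libraries (SD, n = 4); this peak was named after its value was seen.

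In the Pcdhg cluster 2 of 32 peaks (6.25%) were called, both at gene starts. Of all tested peaks 11.0% were called higher, and 18.1% of those with a mean of 50 to 100 normalized reads. The start peak of Pcdhga5 (chr18:37694389-37694589) had 69.1, 53.8, 66.0 and 64.7 normalized reads in control libraries and 94.6, 94.6, 86.9 and 103 in paused libraries. The groups did not overlap, and the log2 change was 0.58 ± 0.14 (SE; limma-trend adjusted p = 0.00508). The start peak of the C-type gene Pcdhgc3 (chr18:37806226-37806426) had 245, 204, 278 and 263 in control and 296, 325, 349 and 294 in paused libraries. Here too each paused library was above each control library, by a log2 change of 0.36 ± 0.11 (SE; limma-trend adjusted p = 0.0253), but the call was lost without control replicate 2 (adjusted p = 0.101) and without paused replicate 2 or 3 (0.0655 and 0.0743). It was also lost in edgeR with TMM, DESeq2 and after the TMM or loess corrections (adjusted p from 0.108 to 0.372).

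Over all Pcdhg start and inner peaks, the 2 called ones included, the sign mostly differed between the 2 kinds on the deposited scale. The change was above 0 for 15 of 18 start peaks, a number that fell to 9 after the loess correction. It was below 0 for all 5 inner peaks under each of the 6 scalings and models run. Of all tested peaks the change was above 0 for 51.2% under 50 normalized reads, 71.0% from 50 to 100 and 88.9% at 100 or more. The start peaks were also stronger, with a median of 98.5 normalized reads against 53.7 for inner peaks. Position and strength were not told apart here. The inner peaks other than that of Pcdhga11 had log2 changes of -0.12 to -0.01, each smaller than its SE. The inner peak of Pcdhga11 had 62.6, 59.7, 57.6 and 63.2 in control and 47.3, 45.7, 40.3 and 55.1 in paused libraries, with a log2 change of -0.37 ± 0.16 (SE). Its limma-trend adjusted p was 0.121; it was called lower in edgeR with TMM (adjusted p = 0.0449) and after the loess correction (adjusted p = 0.0388). Beyond the start of Pcdhgc5, where the constant exons are known to lie, were 6 peaks, and 4 of them had a change below 0. Summed, these 6 peaks were 0.34 ± 0.01 of the other 26 Pcdhg peaks in control and 0.29 ± 0.02 in paused libraries (SD, n = 4), with no overlap; this grouping was made after the values were seen and was not tested. The 2 strongest of the 6, 3.1 and 21.3 kb after that start, had log2 changes of 0.09 ± 0.11 and -0.08 ± 0.13 (SE), so that neither moved beyond its error. The highest change in the cluster was also in this stretch: a weak peak 10724 bp after that start had 21.2 ± 4.98 in control and 32.1 ± 5.30 in paused libraries (SD, n = 4), with a log2 change of 0.59 ± 0.23 (SE; limma-trend adjusted p = 0.0811), and was named after its value was seen.

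In the Pcdha cluster 3 of 20 peaks (15%) were called, beside 11.0% of all tested peaks and 18.1% of those with a mean of 50 to 100. The inner peak of Pcdha3 (chr18:36948252-36948452) had control values of 68.5, 65.7, 67.7 and 77.9 and paused values of 87.7, 88.3, 113 and 101, a log2 change of 0.47 ± 0.14 (SE; limma-trend adjusted p = 0.021). The start peak of Pcdha7 (chr18:36974246-36974446) had 85.4, 93.2, 113 and 77.9 against 133, 114, 138 and 114, a log2 change of 0.43 ± 0.14 (SE; limma-trend adjusted p = 0.0271). In each case the paused values lay above the control values, at Pcdha7 by a narrow margin. The Pcdha3 call was lost without control replicate 1 or paused replicate 3 or 4, and the Pcdha7 call without control replicate 1 or 4 or paused replicate 1 or 3 (limma-trend adjusted p up to 0.0754 and 0.101). Under other scalings, Pcdha3 was lost in DESeq2 and after the TMM or loess corrections (adjusted p up to 0.198), and Pcdha7 in these and in edgeR with TMM (up to 0.289). The third peak, 21913 bp after the start of Pcdhac2 (chr18:37165491-37165691), was close to the threshold (log2 change 0.48 ± 0.17, SE; limma-trend adjusted p = 0.0482), its groups overlapped, and it stayed called only without control replicate 2 or paused replicate 3 among the 8 fits that left out 1 library (adjusted p up to 0.149 in the others). It was lost in edgeR with TMM, DESeq2 and after the TMM or loess corrections (up to 0.313). The C-type starts of Pcdhac1 and Pcdhac2 were not called, with log2 changes of 0.21 ± 0.11 and 0.19 ± 0.12 (SE; limma-trend adjusted p = 0.21 and 0.296). The first peak of the region, at the start of Pcdha1, had 42.2 ± 6.71 in control and 55.1 ± 7.27 in paused libraries (SD, n = 4), with no overlap and no call (limma-trend adjusted p = 0.136).

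Outside the clusters 3 of 13 peaks (23.1%) were called, 1 in each stretch that held peaks. Of all tested peaks 11.0% were called higher, and 19.5% of those with a mean of 100 or more. The only peak between Pcdha and Pcdhb (chr18:37218201-37218401) lay 29404 bp beyond the last Pcdha gene. It was outside the listed Pcdha and Pcdhb genes but within the spans of the 3 read-through genes. It had 104, 100.3, 103 and 123 normalized reads in control and 153, 166, 129 and 164 in paused libraries, with no overlap and a log2 change of 0.50 ± 0.13 (SE; limma-trend adjusted p = 0.00618). HS5-1 is known to lie on this side of Pcdha, but its coordinates were not used here and the peak is not named after it. Between Pcdhb and Pcdhg, a peak 22411 bp after Pcdhb22 (chr18:37543730-37543930) had 137, 123, 122 and 138 against 146, 158, 205 and 186, a log2 change of 0.41 ± 0.12 (SE; limma-trend adjusted p = 0.0236). Its groups did not overlap, and the call was lost without control replicate 3 or paused replicate 3 or 4 (adjusted p up to 0.094), and in edgeR with TMM, DESeq2 and after the TMM or loess corrections (up to 0.292).

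The downstream call (chr18:37860165-37860365) lay 18392 bp after Pcdhg, inside Diaph1 and on the side where the enhancers of Pcdhb and Pcdhg are known. Its values were 130.0, 117, 141 and 144 in control and 179, 194, 183 and 182 in paused libraries, a log2 change of 0.47 ± 0.12 (SE; limma-trend adjusted p = 0.00523), with the groups well apart. It was 1 of 9 peaks of that flank. The strongest of the 9 (chr18:37852223-37852423) had a mean of 160 in control and 177 in paused libraries, a log2 change of 0.15 ± 0.13 (SE), and the last peak of the region had 14.2 ± 5.54 and 10.1 ± 4.18 (SD, n = 4), with a log2 change of -0.45 ± 0.36 (SE). The peaks called between Pcdha and Pcdhb, at Pcdhga5 and in the downstream flank were lost in only 2 of 17 alternatives, DESeq2 (adjusted p of 0.0726, 0.1 and 0.0705) and the loess correction.

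**Figure D4:**
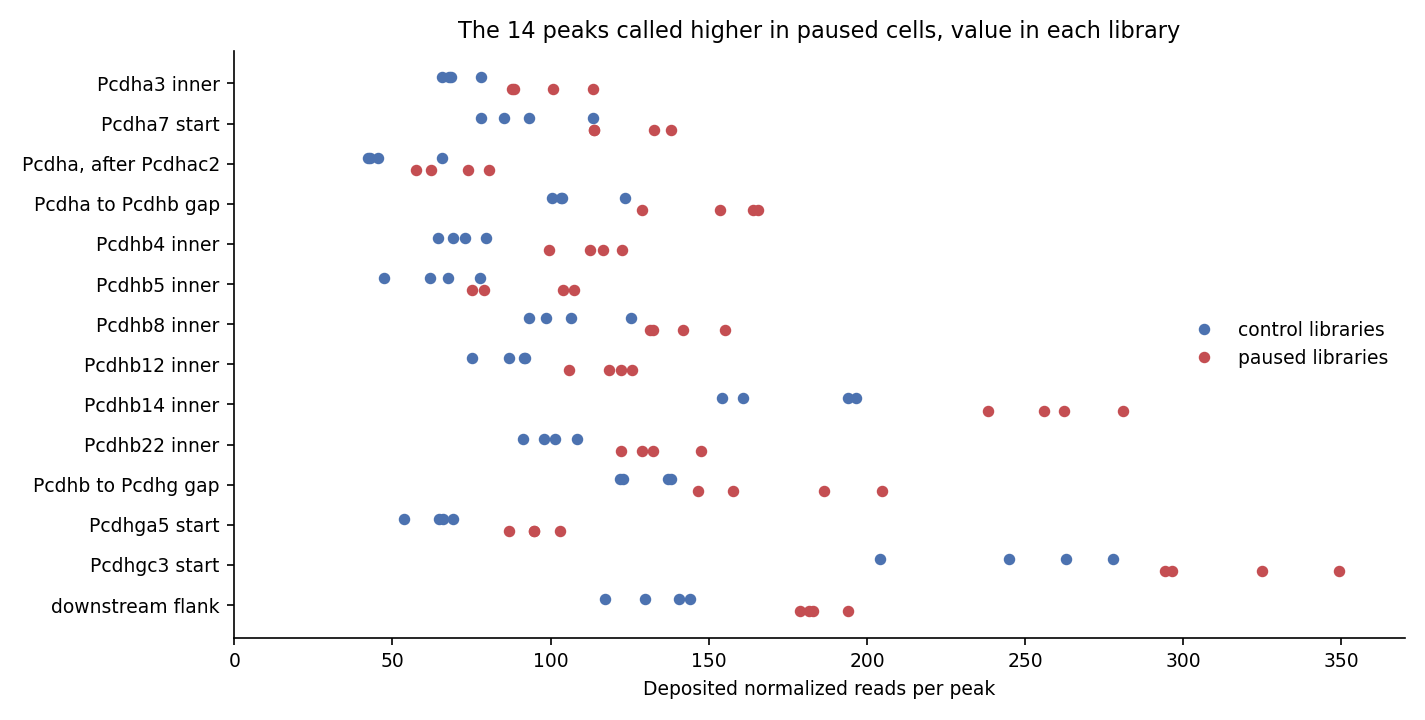
Normalized reads in each of the 4 control (blue) and 4 paused (red) libraries for the 14 peaks called higher in paused cells, ordered along the chromosome. Paused libraries lie above control libraries except at Pcdhb5 and at the peak after Pcdhac2, where the groups overlap.

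Sums over whole segments ask whether a cluster as a unit was more accessible, without a threshold per peak. The region summed to 7609 ± 416 normalized reads in control and 8770 ± 357 in paused libraries (SD, n = 4), 15.3% more. The lowest paused library (8352) was above the highest control library (7965). By exact two-sided permutation p was 0.0286, which no arrangement of the 70 can undercut, and 0.05 when adjusted over 7 sums, which is not under the threshold. The log2 change was 0.21. The sum of all peaks in the table changed by 0.16 and was likewise separate between the groups. With TMM scaling the change of the region sum was 0.10 (exact permutation p = 0.0857), and as a share of all normalized reads in peaks it was 0.05 (exact permutation p = 0.229).

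On the deposited scale Pcdha and Pcdhb were separate between the groups and Pcdhg was not. The Pcdha sum was 1355 ± 47.5 in control and 1598 ± 63.8 in paused libraries and the Pcdhb sum 2271 ± 110 and 2728 ± 156 (SD, n = 4). Neither overlapped, with log2 changes of 0.24 and 0.26 (exact permutation p = 0.0286, adjusted 0.05). With TMM scaling these changes were 0.13 and 0.16 (exact permutation p = 0.0286 and 0.0571, adjusted 0.1), and as shares of all normalized reads in peaks 0.08 and 0.11 (exact permutation p = 0.0571 and 0.0857, adjusted 0.2). The Pcdhg sum was 2887 ± 207 and 3138 ± 200 (SD, n = 4), and its groups overlapped (log2 change 0.12; exact permutation p = 0.143, adjusted 0.143). The Pcdhg sum had a log2 change of 0.02 with TMM scaling and of -0.04 as a share. The 3 peaks between Pcdhb and Pcdhg summed to 284 ± 26.8 and 361 ± 50.5, and the downstream flank to 704 ± 56.6 and 792 ± 46.8 (SD, n = 4), with exact permutation p = 0.0571 and 0.0857 (adjusted 0.08 and 0.1).

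**Figure D5:**
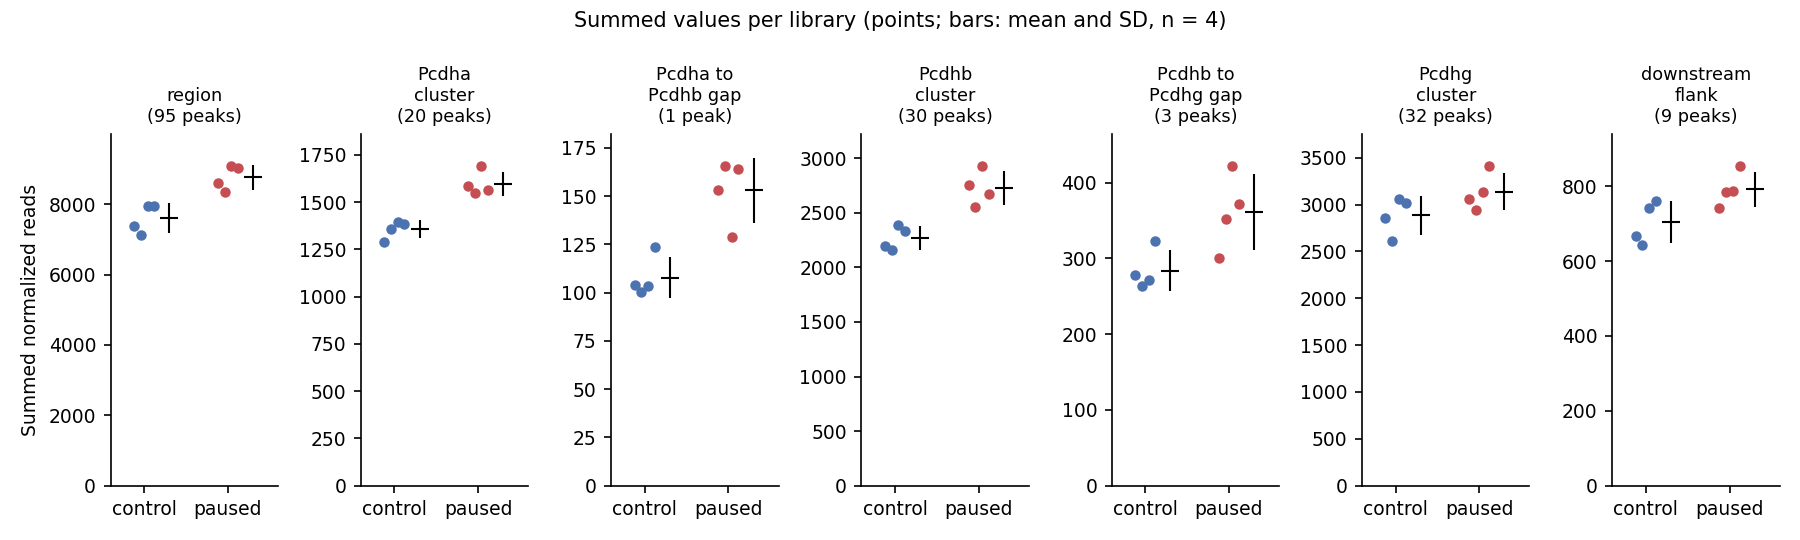
Normalized reads summed over the region and over each segment that holds peaks, per library (points; bars are mean and SD, n = 4), with axes from 0. Paused libraries lie above all control libraries for the region, Pcdha, the Pcdha to Pcdhb gap and Pcdhb, and overlap with control for the other 3 sums.

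Ratios between sums within a library do not depend on the scaling factor and test whether segments changed unequally. None of 6 ratios passed; with 70 arrangements no ratio could pass the adjustment alone, since at least 4 would have to reach the smallest p. The Pcdhb to Pcdhg ratio was 0.79 ± 0.03 in control and 0.87 ± 0.06 in paused libraries (SD, n = 4; exact two-sided permutation p = 0.0571, adjusted over 6 ratios 0.286), higher on average but with paused replicate 4 inside the control range. The ratio of the region to the 1 Mb stretches beside it was 0.47 ± 0.02 and 0.48 ± 0.01 (exact permutation p = 0.571, adjusted 0.571), so that no difference from its surroundings was found. Start peaks summed to 0.83 ± 0.01 of the other cluster peaks in control and 0.86 ± 0.02 in paused libraries (exact permutation p = 0.143, adjusted 0.286), and flanks and gaps to 0.17 ± 0.01 and 0.18 ± 0.01 of the clusters (exact permutation p = 0.314, adjusted 0.471).

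Other protocadherins and the known regulators of the clusters were read from the strongest peak within 1 kb of either end of each gene. Of 12 non-clustered protocadherins, 9 had such a peak, and 4 were called higher and 0 lower (median log2 change 0.28), beside 11.0% and 2.91% of all tested peaks and 19.5% called higher among peaks with a mean of 100 or more. The called ones were Pcdh8, Pcdh10, Pcdh18 and Pcdh19, cell adhesion genes that stand alone in the genome, with log2 changes of 0.36 to 0.49 (limma-trend adjusted p from 0.0237 to 0.0379). None of the 4 was called in edgeR with TMM, DESeq2 or after the TMM or loess corrections, where their changes stayed above 0. Of 22 regulators in the gene table, which include Ctcf, cohesin subunits and silencing factors, 17 had a peak, and 2 were called higher and 0 lower: Pds5a, a cohesin regulator, at 0.41 ± 0.13 (SE), and Setdb1, a histone H3K9 methyltransferase, at 0.44 ± 0.15 (SE). Called higher were 11.0% of all tested peaks and 19.5% of those with a mean of 100 or more. The regulator peaks had a median control mean of 177. Both calls were lost in edgeR with TMM, DESeq2 and after the TMM or loess corrections (adjusted p from 0.106 to 0.325). Ctcf itself had 133 ± 44.1 in control and 162 ± 32.9 in paused libraries (SD, n = 4), a log2 change of 0.32 ± 0.15 (SE; limma-trend adjusted p = 0.161), without a call. Accessibility at a promoter is not a level of the protein.

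The reads in peaks ranged from 4434037 to 21161767 per library, with 4704 to 21378 of them in the region (0.0953% to 0.107%). The median member held 42 reads in control replicate 3 and 198 in control replicate 1, a counting error of 0.22 and 0.10 on the log2 scale. Of 9 stem cell marker genes 6 had a peak within 1 kb of an end, with summed values of 760 to 836 in control and 925 to 1047 in paused libraries. Zfp42, 1 of the 6, was called higher, with a mean of 207 in control and 273 in paused libraries. Among all tested peaks 11.0% were called higher, and 19.5% of those with a mean of 100 or more. The Zfp42 call was lost in edgeR with TMM, DESeq2 and after the TMM or loess corrections (adjusted p from 0.064 to 0.236). Of 6 fibroblast, 5 endoderm and 5 neural marker genes, 3 each had a peak and 0 were called. Their summed values in control and paused libraries were 262 to 353 and 324 to 383 for fibroblast, 237 to 283 and 261 to 303 for endoderm, and 283 to 354 and 311 to 362 for neural markers. The defining genes Col3a1, Pdgfra, Gata4, Foxa2, Pax6 and Nes had no such peak, and neither did the stem cell gene Pou5f1, so that these peaks do not settle which cells were present; their part in the results was not tested.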

How the data were processed

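ATAC-seq of 4 control and 4 paused E14 libraries was analysed from 1 table of 134407 peaks, each 201 bp wide. Per the submitters' processing notes, FastQC, Trim Galore, Bowtie2 2.4.1, MACS3 3.0.3, DiffBind 3.16.0 and build mm10 were used. The deposited per-library values are a signal: 100% were whole multiples of 1 step per library within 0.006, so that they are reads divided by 1 factor, whose making is not stated. The authors also deposited log2 folds and concentrations, per the file headers, and p-values with FDR for their own comparison. No per-library column was left unused.

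The main test was limma-trend (limma 3.58.1, R 4.3.3) on log2(value + 1) for peaks with a mean of at least 10. The design had allowed for raw counts; edgeR 4.0.16 and DESeq2 1.42.0 on recovered reads became alternatives, besides a pseudocount of 0.1, no filter, a mean of at least 50, TMM, loess (span 0.3), a replicate block and each library left out. On simulated data limma-trend called 162 of 200 changed peaks. The simulated log2 changes were at least 1 in size, larger than that of any member. This count therefore does not measure power at the changes seen here. Sums and ratios used exact permutation over 70 arrangements. Correlations between same-numbered libraries were positive but weak and did not settle whether replicate numbers pair libraries. The main fit used no pairing. Peaks named are all called ones, the strongest of each segment, the 5 strongest, C-type starts, the strongest start of each cluster, and the first and last; others are said to be chosen after their values were seen. The members and lists were chosen with earlier results of these data known. Genes came from RefSeq spans without strand or exons, so that starts are lower coordinates and exonic position was not analysed here. Intervals of counting error do not cover PCR copies.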

Additional observations from a re-analysis of the deposited data

Results flagged for a closer look

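In 6 of 70 groups of 4 libraries, 1 library stood apart from the other 3 by more than Dixon's 95% limit for its gap over the group's range; chance gives about 1 in 20. Control replicate 4 had 123 normalized reads at the single peak between Pcdha and Pcdhb, and so also in the sum of that gap, against 100.3 to 104 in the other control libraries. It also had the highest control ratio of flanks and gaps to clusters, 0.179 against 0.163 to 0.165. Control replicate 2 had a Pcdha to Pcdhg ratio of 0.520 against 0.451 to 0.458, and 65.7 normalized reads at the peak 21913 bp after the Pcdhac2 start against 42.3 to 45.5. Among paused libraries, replicate 1 had 212 at the Pcdhac2 start against 185 to 189. No explanation was tested.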

How the results depend on the processing

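The count of members called higher was 14 and became 7 in edgeR with TMM, 5 after TMM rescaling, 2 in DESeq2 and 2 after the loess correction; the cause was not tested. It ranged from 8 to 13 with 1 library left out (8 without control replicate 1, 9 without paused replicate 3 or 4). The 8 were 8.42% of members, beside 8.34% of all tested peaks called higher in that fit. Members called lower were 1 in edgeR with TMM (the Pcdhga11 inner peak) and 2 after loess correction (that peak and one 6767 bp after the Pcdhgc5 start). The median change of members, 0.17, became 0.102, 0.0701, 0.0867 and 0.0141 in edgeR with TMM, TMM rescaling, DESeq2 and loess. Its excess over the median of all tested peaks, 0.069, became 0.102, 0.069, 0.085 and 0.025 in the same order. With a minimum mean of 50 normalized reads the excess was 0.026, from medians of 0.211 for members and 0.185 for all such peaks. Signs turned for the peak 3120 bp after the Pcdhgc5 start (-0.0139 with TMM rescaling, -0.12 with loess), the strongest downstream peak (-0.0551 with loess), the Pcdhac2 start (-0.0193 with loess), the last Pcdhg peak (-0.083, and from -0.189 without paused replicate 4 to 0.0610 without paused replicate 2), the Pcdhg sum as a share of the total (-0.0364), the Pcdha to Pcdhb ratio without the strongest peak (0.0043) and the ratio to neighbours (0.024, and from -0.0072 without control replicate 2 to 0.0434 without control replicate 4), none of them called. With a replicate block 19 members were higher and 0 lower, beside 13.6% and 3.63% of all tested peaks. Same-numbered libraries had correlations of 0.079, 0.036, 0.133 and 0.039. Most libraries, but not all, correlated best with their own number. In edgeR with the deposited factors, added after seeing the data, 18 were higher, beside 12.9% of all tested peaks. None of the 33 members under 50 normalized reads was called; the part of depth was not tested.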
